A study of Yarrowia lipolytica with 8 samples.

Results

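The mitochondrial ribosomal protein genes of the oleaginous yeast Yarrowia lipolytica were followed through glycerol limitation in cultures with and without control of dissolved oxygen. Members were the genes whose first KEGG Orthology hit, as listed in the deposited tables, was a large or small subunit ribosomal protein named by a letter and a number alone (the form used for bacterial and organellar ribosomes, as in L1 or S2), or named mitochondrial outright. The rule used annotation only and no expression value. It found 8 of 6394 listed genes, of which 3 encode large subunit proteins (L1, L3 and L13) and 5 encode small subunit proteins (S2, S5, S8, S13 and S16). For 5 of the 8 the hit was the gene's own KEGG entry, whereas L1, L3 and S16 were named from the entry of another fungus. The BLAST title in the tables called 3 of the 8 mitochondrial ribosomal proteins (L13, S8 and S16). A further 8 genes carried such a title but not such a KEGG name, so the members are a sample of the mitochondrial ribosome and not the whole of it.

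All cultures were of 1 strain, ACA DC 50109, grown in batch fermenters on an equal mixture of glucose and glycerol and sampled after nitrogen had become limiting, so that nitrogen limitation is shared by every group. The first pair of groups had the dissolved oxygen pressure (pO2) held at 50% of air saturation, and the second pair had it uncontrolled. In each pair 1 group was taken before and 1 after glycerol limitation, with 2 libraries a group and 8 libraries in all. GEO's labels give only the oxygen setting and a sample number (pO2-1 and pO2-2 with control, and the UN samples numbered 2 and 3 without). The place of each sample relative to glycerol limitation comes from the study's text, and that of pO2-UN-2 was assigned as the remaining one. No genotype was compared, and time in culture moves together with limitation and cannot be told apart from it. The oxygen settings were separate cultures, and the study reports faster growth with control. Culture, growth and time of sampling therefore cannot be told apart from oxygen.

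The mitochondrial ribosome translates the few messages encoded by mitochondrial DNA, which in yeasts are mostly core subunits of the respiratory chain and the ATP synthase. Its RNA is transcribed in the organelle, while nearly all of its proteins are encoded in the nucleus, made by cytosolic ribosomes and imported. Many of these proteins descend from bacterial ribosomal proteins, which is why a bacterial name such as L3 or S13 can be given to a nuclear gene. The genes for cytosolic ribosomal proteins are a separate set, and served here as the nearest group for comparison.

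Expression was given as FPKM, the number of fragments of a gene scaled by its length and by the mapped fragments of the library. Each library held about 5080000 to 5340000 fragments, as read from the steps between low FPKM values, and a member's value rested on about 82 to 1705 fragments. In all 8 libraries each member was above 20 FPKM. Across genes, the squared difference between replicates averaged 1.23 and 1.30 times what counting alone would give in the controlled groups, and 21.65 and 17.6 times in the uncontrolled groups. The medians of this ratio were 0.508 and 0.552 in the controlled and 3.001 and 3.134 in the uncontrolled groups. A squared difference has a median below its mean under counting alone too. Only in the uncontrolled groups was the gap much wider, so that there part of the genes carried the means. Between replicates the members had an SD of 0.10 and 0.08 on the log2 scale in the uncontrolled groups before and after limitation, below the 0.24 and 0.23 of all genes with a mean of at least 32 FPKM. The labels only number the replicates. The study calls them biological, but nothing used here states separate fermenters, so p-values measure the spread between these libraries, which may be technical. With 2 libraries against 2 an exact two-sided permutation test cannot give a p below 0.333, so all p-values below come from limma, fitted to log2(FPKM + 1) over all genes and adjusted by the Benjamini-Hochberg method. FPKM is relative to the library's total, so that more RNA of a gene and less of the others cannot be told apart.

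The members as a group changed places within the transcriptome between the 4 conditions. Their median was 38.5 and 39.1 FPKM in the controlled libraries before limitation and 103.4 and 105.1 FPKM after it. Without control it was 272.1 and 254.2 FPKM before limitation and 195.6 and 175.6 FPKM after it. The median member thus rose with limitation in the controlled cultures and fell in the uncontrolled ones, from a much higher starting level. Within each library's own ranking of genes, which does not depend on scaling, the median member stood at percentiles 44.2 and 45 in the controlled cultures before limitation and 71.4 and 72.0 after it. The corresponding percentiles without control were 88.1 and 87.9 before limitation and 84.6 and 82.9 after it.

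**Figure D1:**
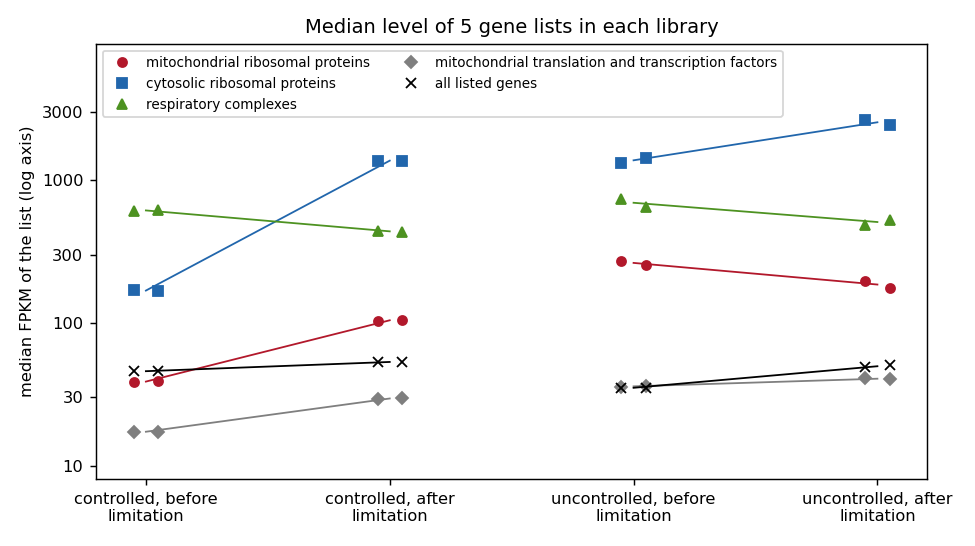
Median FPKM (log axis) of 5 gene lists in each of the 8 libraries, with replicates as points and lines joining the group means within each oxygen setting. The members rose from 38.5 and 39.1 to 103.4 and 105.1 FPKM with pO2 controlled and fell from 272.1 and 254.2 to 195.6 and 175.6 FPKM without control, whereas the cytosolic list rose in both.

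The ratio of the median cytosolic to the median mitochondrial ribosomal protein gene, taken inside each library and so free of scaling between libraries, was higher after limitation in both oxygen settings. Before limitation this ratio of FPKM medians was 4.405 and 4.282 with pO2 controlled and 4.829 and 5.669 without control. After limitation it was 13.24 and 13.04 with control and 13.48 and 13.97 without. All 4 libraries taken after limitation lay above all 4 taken before it. The cytosolic list held 88 genes, 2 of which carry a mitochondrial BLAST title, and its median log2 fold change in the controlled cultures was 2.88 without them and 2.87 with them.

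Among the large subunit members, L1 (YALI0_D12771g, chromosome D, 1594043 to 1594927, minus strand, in the coordinates of the CLIB122 assembly that the files use) is the counterpart of the bacterial protein that forms the mobile stalk beside the tRNA exit site. It had 23.1 and 20.3 FPKM in the controlled cultures before limitation and 60.5 and 58.5 FPKM after it. Without control the L1 gene had 219.2 and 186.9 FPKM before limitation and 144.2 and 135.8 FPKM after it. L1 was the lowest member in both controlled groups and, after limitation, in the uncontrolled one, and no pair of its groups overlapped. L13 (YALI0_D10065g, chromosome D, 1274740 to 1275279, plus strand), an early-binding protein in bacterial large subunit assembly and the counterpart of YmL23 in Saccharomyces cerevisiae, had 42.0 and 42.6 FPKM before and 118.2 and 119.9 FPKM after limitation under control. Without control L13 had 364.2 and 368.5 FPKM before and 241.8 and 234.2 FPKM after limitation. Its replicates were close in every group, and the 4 groups stood in the same order as those of L1. L3 (YALI0_F10076g, chromosome F, 1360092 to 1360925, plus strand) is known in bacteria for its place near the peptidyl transferase centre, where peptide bonds are made. The gene had 34.9 and 35.6 FPKM before and 85.2 and 81.6 FPKM after limitation under control. Without control L3 had 188.8 and 178.1 FPKM before and 167.5 and 158.1 FPKM after limitation, so that these last groups lay close together without overlapping.

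Of the small subunit members, S16 (YALI0_E09691g, chromosome E, 1181475 to 1181795, plus strand), whose bacterial counterpart takes part in the early assembly of the subunit body, held the highest single values. It had 68.6 and 63.0 FPKM before and 88.4 and 89.2 FPKM after limitation under control. Without control S16 had 544.4 and 540.9 FPKM before and 201.9 and 214.6 FPKM after limitation. The gene was thus the first of the 8 in both uncontrolled libraries before limitation and the sixth in both controlled libraries after it. S5 (YALI0_D01804g, chromosome D, 208679 to 209617, plus strand) belongs in bacteria to the region that governs the accuracy of decoding. This gene had 56.7 and 50.9 FPKM before and 101.0 and 103.0 FPKM after limitation under control, and 356.8 and 344.6 FPKM before and 192.4 and 173.3 FPKM after it without control. S5 followed the order of L1 and L13, with no overlap between any groups. S8 (YALI0_E31317g, chromosome E, 3692002 to 3692478, minus strand), which in bacteria binds the central domain of the small subunit RNA, had 32.1 and 33.5 FPKM before and 111.3 and 107.2 FPKM after limitation under control. Its uncontrolled values were 247.3 and 260.9 FPKM before and 198.9 and 177.8 FPKM after limitation, again apart from each other.

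S13 was the member with overlapping groups and S2 the one with another order of groups. S13 (YALI0_B06578g, chromosome B, 885434 to 886544, plus strand), in bacteria a protein of the subunit head that contacts the large subunit, had 73.1 and 75.1 FPKM before and 152.2 and 155.5 FPKM after limitation under control. Without control S13 had 297.0 and 247.6 FPKM before and 233.7 and 250.0 FPKM after limitation. Its group means stood in the order of those of L1, but it was the only member whose uncontrolled groups overlapped (over all tested genes the groups did not overlap for 86.1%), and S13 was the highest of the 8 in all 4 controlled libraries. S2 (YALI0_F12991g, chromosome F, 1743173 to 1744456, minus strand), which in bacteria sits between the head and body of the small subunit, had 26.5 and 31.4 FPKM before and 105.7 and 112.8 FPKM after limitation under control. Its uncontrolled values were 118.7 and 130.7 FPKM before and 181.9 and 169.5 FPKM after limitation. S2 was the lowest member in both uncontrolled libraries before limitation and the only one with both later libraries above both earlier ones in those cultures.

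**Figure D2:**
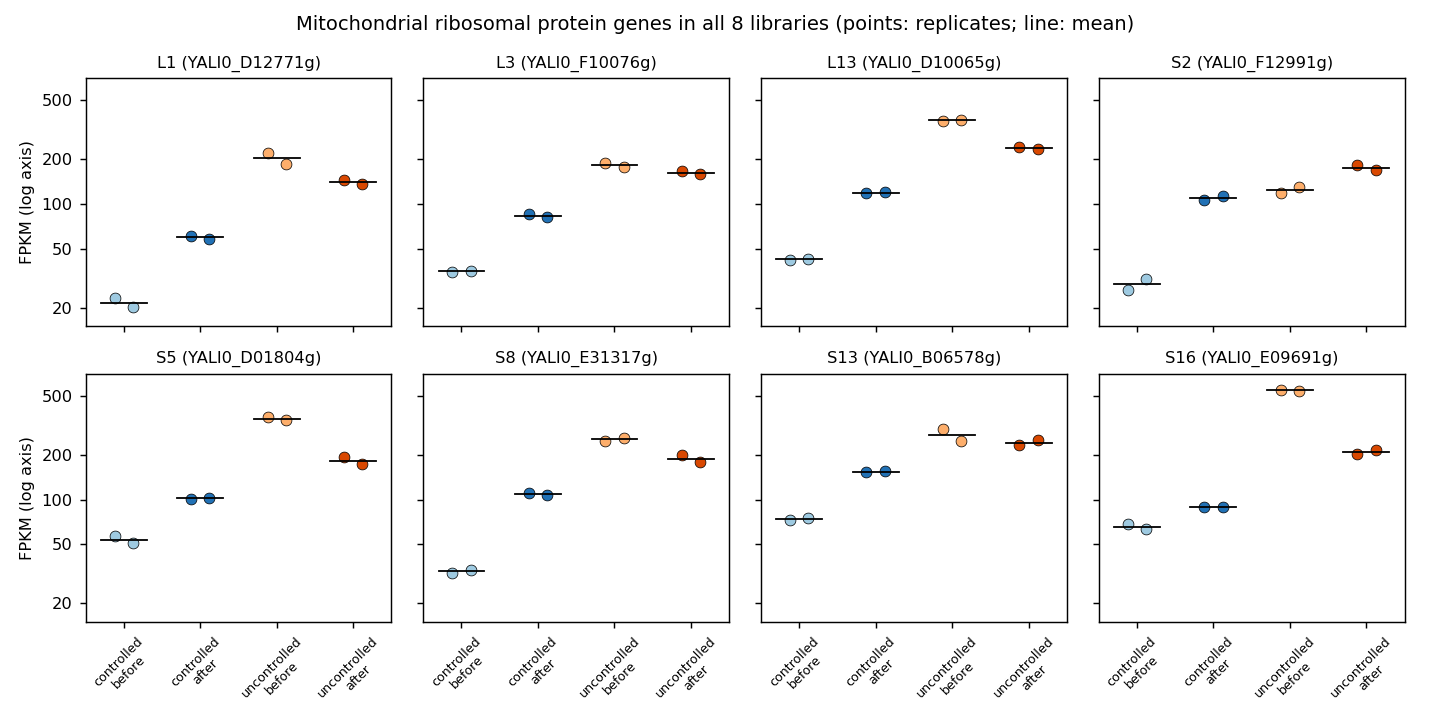
FPKM (log axis) of each of the 8 members in the 4 groups, with the replicates as points and the group mean as a line. For 7 members the uncontrolled groups before and after limitation do not overlap, against 86.1% of all tested genes, and only S2 is higher after limitation there.

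The highest and lowest members also drew together. The highest member was 4.59 and 4.14 times the lowest in the uncontrolled libraries before limitation and 1.68 and 1.84 times after it. In the controlled libraries the same ratio of FPKM was 3.16 and 3.70 before and 2.52 and 2.66 after limitation. In both oxygen settings, then, the ratio was smaller in each later library than in each earlier one. The ratio rests on the extreme members alone, so it does not describe the spread of the others. By mean FPKM over the 8 libraries S16 (226.4), L13 (191.4) and S13 (185.5) were highest and L3 (116.2), S2 (109.7) and L1 (106.0) lowest. This order was not fixed, since the rank of S16 ran from 1 to 6 of the 8 members and that of S2 from 3 to 8.

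The first question was how the genes responded to glycerol limitation with pO2 controlled. All 8 members rose (limma, adjusted p under 0.05), while 45.6% of all tested genes rose and 2239 of 6218 fell. None of the 8 reached a minimum of 2 on the log2 scale, against 9.52% of genes that rose by as much. The study's minimum of 2 can be read as a log2 value, as here, or as a 2-fold change (1 on the log2 scale), which 6 of the 8 reached, against 22.5% of genes that rose by as much. Their median log2 fold change was 1.32, against 0.13 over all genes. The largest changes were those of S2 (3.77-fold in mean FPKM, log2 fold change 1.88, SE 0.09, limma adjusted p = 6.2e-06), S8 (3.33-fold, 1.71, SE 0.06, limma adjusted p = 1.4e-06) and L13 (2.81-fold, 1.47, SE 0.05, limma adjusted p = 1.3e-06). The smallest were those of S16 (1.35-fold, 0.43, SE 0.06, limma adjusted p = 0.00079), S5 (1.90-fold, 0.91, SE 0.07, limma adjusted p = 4e-05) and S13 (2.08-fold, 1.04, SE 0.04, limma adjusted p = 3.3e-06). L1 and L3 lay between them at log2 fold changes of 1.42 and 1.22. The median was 1.42 for the 3 large subunit genes and 1.04 for the 5 small subunit genes, whose own range spanned that of the large subunit.

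In the uncontrolled cultures the same comparison gave mixed results. Of the 8 members 5 fell, against 21.5% of all tested genes (1 by at least 2-fold, against 13.4%), 1 rose, against 48.9%, and L3 and S13 did not pass the test. S16 fell furthest, by 1.38 on the log2 scale (SE 0.12, limma adjusted p = 7.5e-05), followed by S5, which fell by 0.94 (SE 0.13, limma adjusted p = 0.00058), and L13, which fell by 0.62 (SE 0.12, limma adjusted p = 0.0031). L1 fell by 0.53 (limma adjusted p = 0.013) and S8 fell by 0.43 (limma adjusted p = 0.023). The log2 fold change of S2 was 0.49 (SE 0.14, limma adjusted p = 0.015). That of L3 was -0.17 (95% interval -0.48 to 0.14, limma adjusted p = 0.28) and that of S13 -0.17 (95% interval -0.51 to 0.17, limma adjusted p = 0.34). The members' median was -0.48 while that of all genes was 0.49. After median-of-ratios scaling, which brings the median of all genes to 0.03, the members' median was -0.96, 7 members fell, L3 and S13 among them, and S2 did not pass (log2 fold change 0.01, limma adjusted p = 0.96). Leaving out either replicate of pO2-UN-3 also changed the count, to 3 lower and 0 higher, since L1, S8 and S2 no longer passed. Leaving out either replicate of pO2-UN-2 gave 4 lower and 1 higher, so no run with 1 library left out kept the count of 5.

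**Figure D3:**
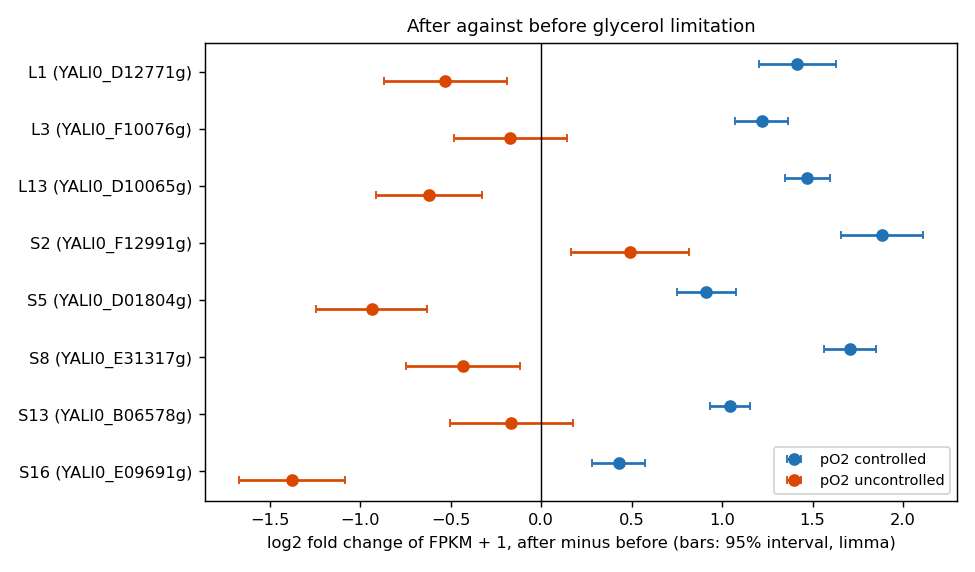
Log2 fold change of FPKM + 1 after against before glycerol limitation for each member, with pO2 controlled (blue) and uncontrolled (orange), and bars showing 95% intervals from limma. All 8 controlled values lie above 0, from 0.43 for S16 to 1.88 for S2, and 7 of the 8 uncontrolled values lie below 0.

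Whether the response to limitation differed between the oxygen settings was tested directly, as the uncontrolled minus the controlled log2 fold change in a fit over all 8 libraries. This fit assumes the same spread in all groups for each gene. Over all genes the replicates differed more without control, so its SEs and p-values rest on an assumption that the data do not meet. The difference was negative and passed the test for all 8 members, against 29.1% of all tested genes with a negative and 38.1% with a positive difference. It was past 2 in size for S8 (-2.14, SE 0.13, limma adjusted p = 4.5e-06) and L13 (-2.09, SE 0.11, limma adjusted p = 1.9e-06), against 6.85% of genes, and past 1 for all 8, against 19.7%. L1 followed at -1.95 (SE 0.16, limma adjusted p = 2.2e-05). The smallest differences were those of S13 (-1.21, SE 0.14, limma adjusted p = 0.00016), L3 (-1.39, SE 0.12, limma adjusted p = 3.1e-05) and S2 (-1.39, SE 0.16, limma adjusted p = 0.00012), the 3 members not called lower in the uncontrolled cultures. The median difference was -1.83 over the members and 0.20 over all genes. S16 and S2, which stood at opposite ends of both responses, differed less in this measure, at -1.81 and -1.39.

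The oxygen settings were also compared at each stage, as separate cultures whose other differences cannot be told apart from oxygen. These values set a level in 1 deposited table against a level in the other, and the tables were not normalised together. The percentiles given above for each library therefore stand beside them. Each fit also pooled a controlled and an uncontrolled group under 1 spread for each gene. Over genes with a mean of at least 32 FPKM the controlled replicates had SDs of 0.10 before and 0.08 after limitation. The uncontrolled replicates had 0.24 and 0.23. The SEs and p-values of the oxygen comparisons thus rest on the same unmet assumption. Before limitation all 8 members were higher without control (limma, adjusted p under 0.05), against 30.9% of tested genes, 7 were higher by at least 2 on the log2 scale, against 9.18%, and all 8 by at least 2-fold, against 20.6%. L1 was 9.36-fold higher in mean FPKM (log2 fold change 3.17, SE 0.13, limma adjusted p = 5.5e-05), L13 was 8.66-fold higher (3.08, SE 0.08, limma adjusted p = 2.5e-05) and S16 was 8.25-fold higher (3.03, SE 0.08, limma adjusted p = 2.7e-05). S8, S5, L3 and S2 followed at log2 fold changes of 2.92, 2.69, 2.35 and 2.07, and S13 had the smallest, 1.86 (SE 0.12, limma adjusted p = 0.00017). The members' median was 2.80 and that of all genes -0.31. After median-of-ratios scaling the members' median was 3.11.

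After limitation the members were closer between the settings. All 8 were again higher without control (limma, adjusted p under 0.05), against 21.5% of tested genes, none reached 2 on the log2 scale, which 1.34% of genes did, and 2 were higher by at least 1 on that scale, against 6.06%. The largest differences were those of L1 (2.35-fold, log2 fold change 1.22, SE 0.09, limma adjusted p = 0.00067), S16 (2.35-fold, 1.22, SE 0.08, limma adjusted p = 0.00057) and L13 (2.00-fold, 0.99, SE 0.07, limma adjusted p = 0.00068). The smallest were those of S13 (0.65, SE 0.08, limma adjusted p = 0.0021), S2 (0.68, SE 0.08, limma adjusted p = 0.0025) and S8 (0.78, SE 0.09, limma adjusted p = 0.002). L1, L13 and S16 thus gave the 3 largest differences at both stages, and S13 the smallest.

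**Figure D4:**
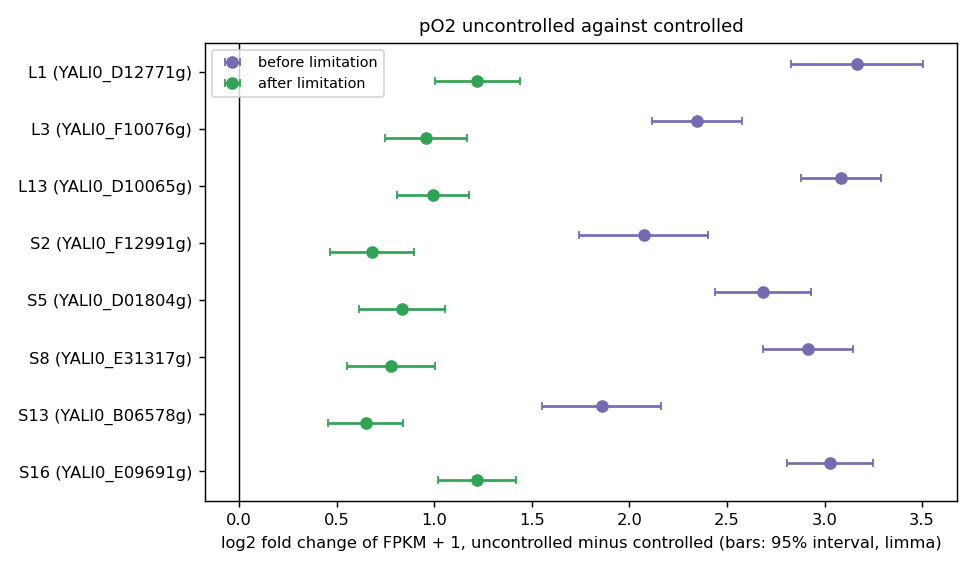
Log2 fold change of FPKM + 1 without against with pO2 control for each member, before (purple) and after (green) glycerol limitation, with 95% intervals from limma. Every value lies above 0, between 1.86 and 3.17 before limitation and between 0.65 and 1.22 after it.

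The cytosolic ribosomal protein genes were the nearest comparison. With pO2 controlled 85 of 88 rose on limitation, against 45.6% of all tested genes, with a median log2 fold change of 2.87. Of these, 77 rose by at least 2 on the log2 scale, against 9.52% of all tested genes. Without control 80 of 88 rose and 3 fell, against 48.9% and 21.5% of all tested genes. Their median was 0.84 where that of the members was -0.48. In the test of the difference between the responses 85 of the 88 were lower without control, against 29.1% of all tested genes. The median was -2.03 beside -1.83 for the members. The difference was thus negative in most genes of both sets, while on limitation without control most cytosolic genes rose and 5 of the 8 members fell. Whether the sets themselves differ was not tested. Before limitation the oxygen comparison gave medians of 2.84 for the cytosolic and 2.80 for the mitochondrial genes.

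Genes of the other steps of mitochondrial gene expression, 19 genes of translation factors, tRNA-modifying enzymes, GTP-binding proteins, the organelle's RNA polymerase and the membrane insertase family, changed in both directions. With pO2 controlled 13 rose, 1 fell and 5 did not pass, where 45.6% of all tested genes rose and 2239 of 6218 fell, and their median log2 fold change was 0.89. Without control 5 rose, 8 fell and 6 did not pass, where 48.9% of all genes rose and 21.5% fell, and their median was -0.14. The mitochondrial RNA polymerase gene (YALI0_A12001g) had 7.41 and 6.16 FPKM before and 29.1 and 26.0 FPKM after limitation under control, and 75.3 and 73.2 FPKM before and 41.0 and 40.8 FPKM after it without control. It rose by 1.88 on the log2 scale in the first case (limma adjusted p = 3e-05) and fell by 0.84 in the second (limma adjusted p = 0.0022), in the order of groups seen for L1. The gene of a YidC/Oxa1-type insertase (YALI0_F32021g), a family that places proteins made on mitochondrial ribosomes into the inner membrane, had 12.4 and 12.99 FPKM before and 62.5 and 63.2 FPKM after limitation under control. Its uncontrolled values were 214.8 and 211.3 FPKM before and 102.2 and 85.0 FPKM after limitation. The response difference of this gene was -3.40 (limma adjusted p = 1.3e-06), beyond that of any of the 8 members. Also beyond the members were the polymerase gene (-2.72), an elongation factor G gene (YALI0_D07326g, -2.95) and the initiation factor IF-2 gene (YALI0_B21978g, -2.25). The other listed genes of the insertase family did not share the change of YALI0_F32021g. YALI0_B13772g had a response difference of 1.04 (limma adjusted p = 0.0047) and YALI0_F13387g one of 0.19 (limma adjusted p = 0.34).

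Other factors were split. The elongation factor Tu gene (YALI0_F24387g), whose product brings aminoacyl-tRNA to the ribosome, was above every member in each library, with 296.8 and 282.9 FPKM before and 539.5 and 537.7 FPKM after limitation under control. Without control it had 1498.9 and 1219.6 FPKM before and 716.1 and 707.6 FPKM after limitation, falling by 0.92 on the log2 scale (limma adjusted p = 0.00092). Of the 3 genes named elongation factor G, which moves the ribosome along the message, YALI0_D07326g changed as the polymerase gene did, rising by 1.97 under control (limma adjusted p = 3.3e-05) and falling by 0.98 without it (limma adjusted p = 0.0049). YALI0_E29645g instead rose in both settings, by 1.37 (limma adjusted p = 3.4e-06) and 1.499 (limma adjusted p = 0.00033). The gene of the ribosome recycling factor (YALI0_A10813g), which splits the ribosome after termination, was the only factor to fall under control. It had 62.9 and 56.9 FPKM before and 22.7 and 29.97 FPKM after limitation there, and 57.8 and 54.8 FPKM before and 30.1 and 28.1 FPKM after it without control. It fell by 1.17 on the log2 scale in the first case (limma adjusted p = 0.00036) and by 0.93 in the second (limma adjusted p = 0.002).

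Genes of the respiratory complexes, some but not all of which hold subunits made by the mitochondrial ribosome, went another way. The KEGG names searched were those of NADH dehydrogenase, succinate dehydrogenase, ubiquinol-cytochrome c reductase, cytochrome c oxidase and the ATP synthase. Of 57 such genes 47 fell and 5 rose with pO2 controlled, where 2239 of all 6218 tested genes fell and 45.6% rose. Without control 37 fell and 4 rose, against 21.5% and 48.9% of all tested genes. The median log2 fold changes were -0.45 with control and -0.51 without it. The difference between the responses was lower without control for 21, higher for 7 and did not pass for 29 of them, against 29.1% lower and 38.1% higher over all genes, with a median of -0.14. In the controlled cultures the mitochondrial ribosomal protein and respiratory genes thus mostly moved in opposite directions on limitation. In the uncontrolled cultures most of both sets were lower afterwards.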

How the data were processed

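RNA was extracted with the RiboPure kit, sequenced on an Illumina instrument from TruSeq libraries, checked with FastQC, mapped by the authors with TopHat2 to the CLIB122 genome and summarised with Cufflinks. The deposited values are FPKM, scaled within each library by the authors in 2 tables (6371 genes with pO2 control, 6386 without). Whether counting used strand is not given in the sources used here, and no member overlapped another listed gene. No value column was left without a sample (0).

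Tables were joined by locus tag. Depth was read from low FPKM values, which were whole multiples of 1 fragment within 0.1 for 92.6 to 99.6% of them. Genes with at least 1 FPKM in at least 2 libraries were tested on log2(FPKM + 1) with limma 3.58.1 (R 4.3.3), empirical Bayes with a mean trend, on the libraries of each comparison alone and on all 8 for the difference between responses, with Benjamini-Hochberg adjustment at 0.05 over all tested genes. A fold change on this scale understates that of low genes. Each fit was tested on simulated data with a log2 SD of 0.1 between replicates in every group, beside counting noise. The uncontrolled groups had SDs of 0.24 and 0.23 over genes with a mean of at least 32 FPKM. The simulation therefore does not cover their spread. Tables and figures were made with Python 3.11.15 (numpy 2.4.6, pandas 2.3.3, matplotlib 3.10.9).

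The members and gene lists were chosen with earlier results of these data known. Named in full were the 3 largest and 3 smallest changes among the genes called in each comparison, those past 2 on the log2 scale, and the 3 highest and lowest by mean FPKM, and the values of all 8 members are given. Cytosolic genes were those with a KEGG ribosomal protein name ending in e, or LP0, LP1, LP2 or SA, including 1 biogenesis protein, RLP24. The 19 factors covered 14 of 18 KEGG numbers searched, and 13 were named from their own entry. Alternatives were a replicate block, another pseudocount, other filters, 1 fit of all 8 libraries or library weights, median-of-ratios scaling, members with their own entry, each library left out and, chosen after seeing the data, members widened by BLAST title, a crossed block and a minimum of 1 in place of 2 on the log2 scale. No sequence is printed, since no genome of this build was used here.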

Additional observations from a re-analysis of the deposited data

Results flagged for a closer look

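For all 8 members the response to glycerol limitation differed between the oxygen settings by a direct test. The adjusted p (limma, all 8 libraries) ran from 1.9e-06 to 0.00016. Over all tested genes 29.1% had a negative and 38.1% a positive difference that passed. The fit assumes the same spread in all groups for each gene, which the data do not meet. As the uncontrolled minus the controlled log2 fold change, the difference was -1.95 for L1 (YALI0_D12771g), -1.39 for L3 (YALI0_F10076g) and -2.09 for L13 (YALI0_D10065g) in the large subunit. In the small subunit it was -1.39 for S2 (YALI0_F12991g), -1.85 for S5 (YALI0_D01804g), -2.14 for S8 (YALI0_E31317g), -1.21 for S13 (YALI0_B06578g) and -1.81 for S16 (YALI0_E09691g). Groups of 2 libraries are too small for a check of single libraries that stand apart.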

How the results depend on the processing

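Of 440 single-gene values under the alternatives, 429 kept their direction and their side of the threshold, 9 no longer passed, 2 newly passed and 0 turned direction. With only the 5 members that had their own KEGG entry, all 5 were higher under controlled limitation and in both oxygen comparisons (4 past 2 before limitation), all 5 had the lower response difference, and 3 were lower under uncontrolled limitation. Their medians were 1.47 for controlled limitation and 2.69 and 0.78 for oxygen before and after it. The list widened by BLAST title, chosen after seeing the data, held 16 genes. All 16 were higher under controlled limitation (3 past 2, median 1.22) and in both oxygen comparisons (15 past 2 before limitation, median 2.73). On uncontrolled limitation 9 were lower, and 16 had the lower response difference (5 past 2). Over all tested genes 45.6% were higher under controlled limitation (9.52% past 2). In the oxygen comparisons 30.9% were higher before limitation (9.18% past 2) and 21.5% after limitation. On uncontrolled limitation 21.5% were lower, and 29.1% had the lower response difference (6.85% past 2). These shares stand beside the list of 5 as well. Median-of-ratios scaling gave medians of 1.20, -0.96, 3.11 and -2.07 for controlled limitation, uncontrolled limitation, oxygen before limitation and the response difference, with 0 members higher under uncontrolled limitation and 5 past 2 in the response difference. A pseudocount of 0.1 gave 1.35 for controlled limitation. A minimum of 1 in place of 2 on the log2 scale was chosen after seeing the data. It was passed by 6 members under controlled limitation, against 22.5% of all tested genes that rose by as much. On uncontrolled limitation 1 member fell past it, against 13.4%. In the oxygen comparisons 8 were past it before limitation, against 20.6%, and 2 after limitation, against 6.06%. The response difference was past it for 8, against 19.7% of genes that were lower by as much. Leaving out 1 library at a time gave medians of 1.28 to 1.35 and 0 to 1 members past 2 for controlled limitation, the 1 being S2 at 2.00 without pO2-1 replicate 2. For uncontrolled limitation it gave 0 to 1 higher, 3 to 4 lower and medians of -0.54 to -0.42. For oxygen before limitation 6 to 7 were past 2, and for the response difference 2 to 3, with medians of -1.90 to -1.76. Replicate numbers did not pair the samples, with correlations of same-numbered deviations between -0.113 and 0.051, and the replicate block left the count of members unchanged in each comparison, 8 higher under controlled limitation among them. The crossed block in the uncontrolled cultures, tried because of the value of -0.113, left 1 higher and 5 lower. The causes were not tested, except that the narrower and wider lists hold fewer and more genes. The limits are 2 libraries a group, 1 strain, and about 82 to 1705 fragments behind a member's value.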

Other observations

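A list of 8 genes, chosen after some values had been seen, had BLAST titles naming a mitochondrial ribosomal protein but no KEGG name that would make them members. YALI0_D12606g and YALI0_F17512g carried cytosolic names (L8e and L23e), YALI0_C08723g was named DNA topoisomerase II, and the others had no KEGG name. All 8 rose on limitation with pO2 controlled (limma, adjusted p under 0.05), against 45.6% of all tested genes. Their median log2 fold change was 1.18 beside 1.32 for the members. Without control 4 fell, against 21.5% of all tested genes, and 4 did not pass, with a median of -0.33. All 8 were higher without control before limitation, against 30.9% of all tested genes, with a median of 2.73. Each was higher by at least 2 on the log2 scale, against 9.18%. After limitation all 8 were again higher, against 21.5%, with a median of 0.91. The gene titled YmL19 (YALI0_D22088g) had a response difference of -3.04, the largest in size of these 8. The gene titled RML2 (YALI0_D12606g), counted among the cytosolic genes by its KEGG name, had a log2 fold change of 2.07 with control (limma adjusted p = 2.3e-06) and -0.10 without it (limma adjusted p = 0.51). The gene titled YmL38/YmL34 (YALI0_F17512g), also counted there, had 0.43 with control (limma adjusted p = 0.0091) and fell by 1.43 without it (limma adjusted p = 0.00033).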
